A study of Mus musculus with 20 samples.

Results

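The genes described here are 54 mouse genes that encode the machinery of ribosome biogenesis. The list was drawn up by function among the 23992 gene symbols measured, with earlier results of these data known. All 54 were found in the RNA-seq libraries, and all 54 passed the filter on low counts. By role they comprise 5 genes for transcription by RNA polymerase I, 5 nucleolar proteins with several roles, 4 core or U3-specific proteins of box C/D small nucleolar ribonucleoproteins (snoRNPs), 4 proteins of box H/ACA snoRNPs, 16 factors of the small subunit and 20 factors of the large subunit. The RNA came from Tregs and CD8+ T cells of mouse spleen and lymph node, taken as unstimulated cells (0 hr) or after stimulation ex vivo with 200 nM IL-2 or 200 nM IL-2-REH for 90 min or 4 hr. IL-2-REH is an engineered form of IL-2 that acts as a partial agonist, which means that it signals less than IL-2 even at saturating dose. Tregs were taken from B6-Foxp3EGFP mice with a CD4+ T cell kit and then sorted for GFP, so the gate selected Foxp3-expressing CD4+ T cells, whereas CD8+ T cells were taken from C57BL/6J mice with a kit and no sort. The sample records give C57BL/6N as the strain of every library, and neither they nor the methods give the age of the mice or say whether libraries with different numbers came from different mice. Each of the 5 Treg groups had 3 libraries (15 in all) and each of the 5 CD8+ groups had 1 (5 in all), so CD8+ differences have no replicate check and p-values in Tregs measure only the spread between these libraries.

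Ribosomes are built in the nucleolus, where RNA polymerase I transcribes the ribosomal DNA into a long precursor RNA. Box C/D and box H/ACA snoRNPs then guide methylation and pseudouridylation of that precursor, and many assembly factors fold, cut and export the pre-ribosomal particles as separate small and large subunits. Lymphocytes raise ribosome production when they leave the resting state and grow, and the transcription factor MYC, which binds the E-box sequence CACGTG, is known to drive many of these genes.

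Promoter sequences from RefSeq (GRCm38.p6, 250 bases before to 50 bases after each annotated start) were found for 49 of the 54 genes, all but Npm1, Fbl, Rrp12, Rrs1 and Bop1. The E-box CACGTG, which reads the same on both strands, was in the windows of 10 of the 49 (20.4%, against 11.01% of the 10931 tested genes with a window and 8.09% of all 27025). In 8 of these 10 the E-box lay after the start, and in the 250 bases before the start it was in 2 of 49 (4.08%, against 9.24% of the tested genes). Of the genes lower by more than 2-fold under IL-2-REH at 4 hr than in unstimulated CD8+ T cells, 12 had a window and 5 of these held an E-box. The E-box genes Wdr43, Utp20, Imp4 and Pes1 did not pass 2-fold against unstimulated cells or IL-2. Any part of the E-box in these differences was not tested. The sequences below are those of the 6 genes that hold an E-box and whose RNA was lower by more than 2-fold under IL-2-REH at 4 hr in CD8+ T cells, against unstimulated cells or against IL-2. They are printed on the gene's strand with the E-box in capitals.
Mybbp1a, chr11:72441355-72441376, plus strand: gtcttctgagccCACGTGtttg
Ltv1, chr10:13193092-13193121, minus strand: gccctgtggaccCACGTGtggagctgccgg
Tsr1, chr11:74898092-74898121, plus strand: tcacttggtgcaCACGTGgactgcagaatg
Nop2, chr6:125131811-125131840, plus strand: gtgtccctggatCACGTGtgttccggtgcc
Nle1, chr11:82908355-82908384, minus strand: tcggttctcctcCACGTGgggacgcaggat
Grwd1, chr7:45830740-45830767, minus strand: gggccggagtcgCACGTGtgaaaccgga
Among the windows shown, the E-box of Nop2 is the one that lies before the start, beginning 60 bases upstream, while the others begin 24 to 41 bases after the start given in the promoter table. For Nle1 and Grwd1 that start lies inside the annotated span of the gene, and from the outer end of the span their E-boxes begin at base 75 and base 240. The Ets-type sequence CCGGAAG, searched on both strands, was in 19 of the 49 windows (38.8%, against 18.3% of tested genes), and the GC box GGGCGG was in 37 of them (75.5%, against 64.8%). A match describes letters in the window and does not show that a factor was bound.

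The level of a gene is given as RPKM, reads per kilobase of transcript scaled to the mapped reads of the library, which can be compared between genes. Mean RPKM over the 20 libraries had a median of 13.7 over the 54 genes. Npm1, the abundant nucleolar chaperone nucleophosmin, had the highest mean at 319.7 RPKM, followed by Ncl (nucleolin) at 92.4 and Nop56, a scaffold protein of box C/D snoRNPs, at 87.5. The lowest means belonged to Polr1e, a subunit of RNA polymerase I, at 3.30 RPKM, Utp20, a large scaffold protein of the small subunit processome, at 4.27 and Bysl, a late factor of small subunit maturation, at 4.46. In the other roles the highest means were those of Emg1, an rRNA methyltransferase of the small subunit (65.3 RPKM), Noc2l in the large subunit (31.5), Polr1c in RNA polymerase I (25.8) and Nop10 in box H/ACA snoRNPs (25.1). The smallest number of reads behind any value was 46, for Nop10 in replicate 3 of IL-2 at 4 hr in Tregs, and the next paragraphs give read counts where they matter. Of the 54 genes, 14 overlap another coding gene and 7 hold snoRNA genes, and since the use of strand in counting was not stated, reads in overlaps are uncertain.

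**Figure D1:**
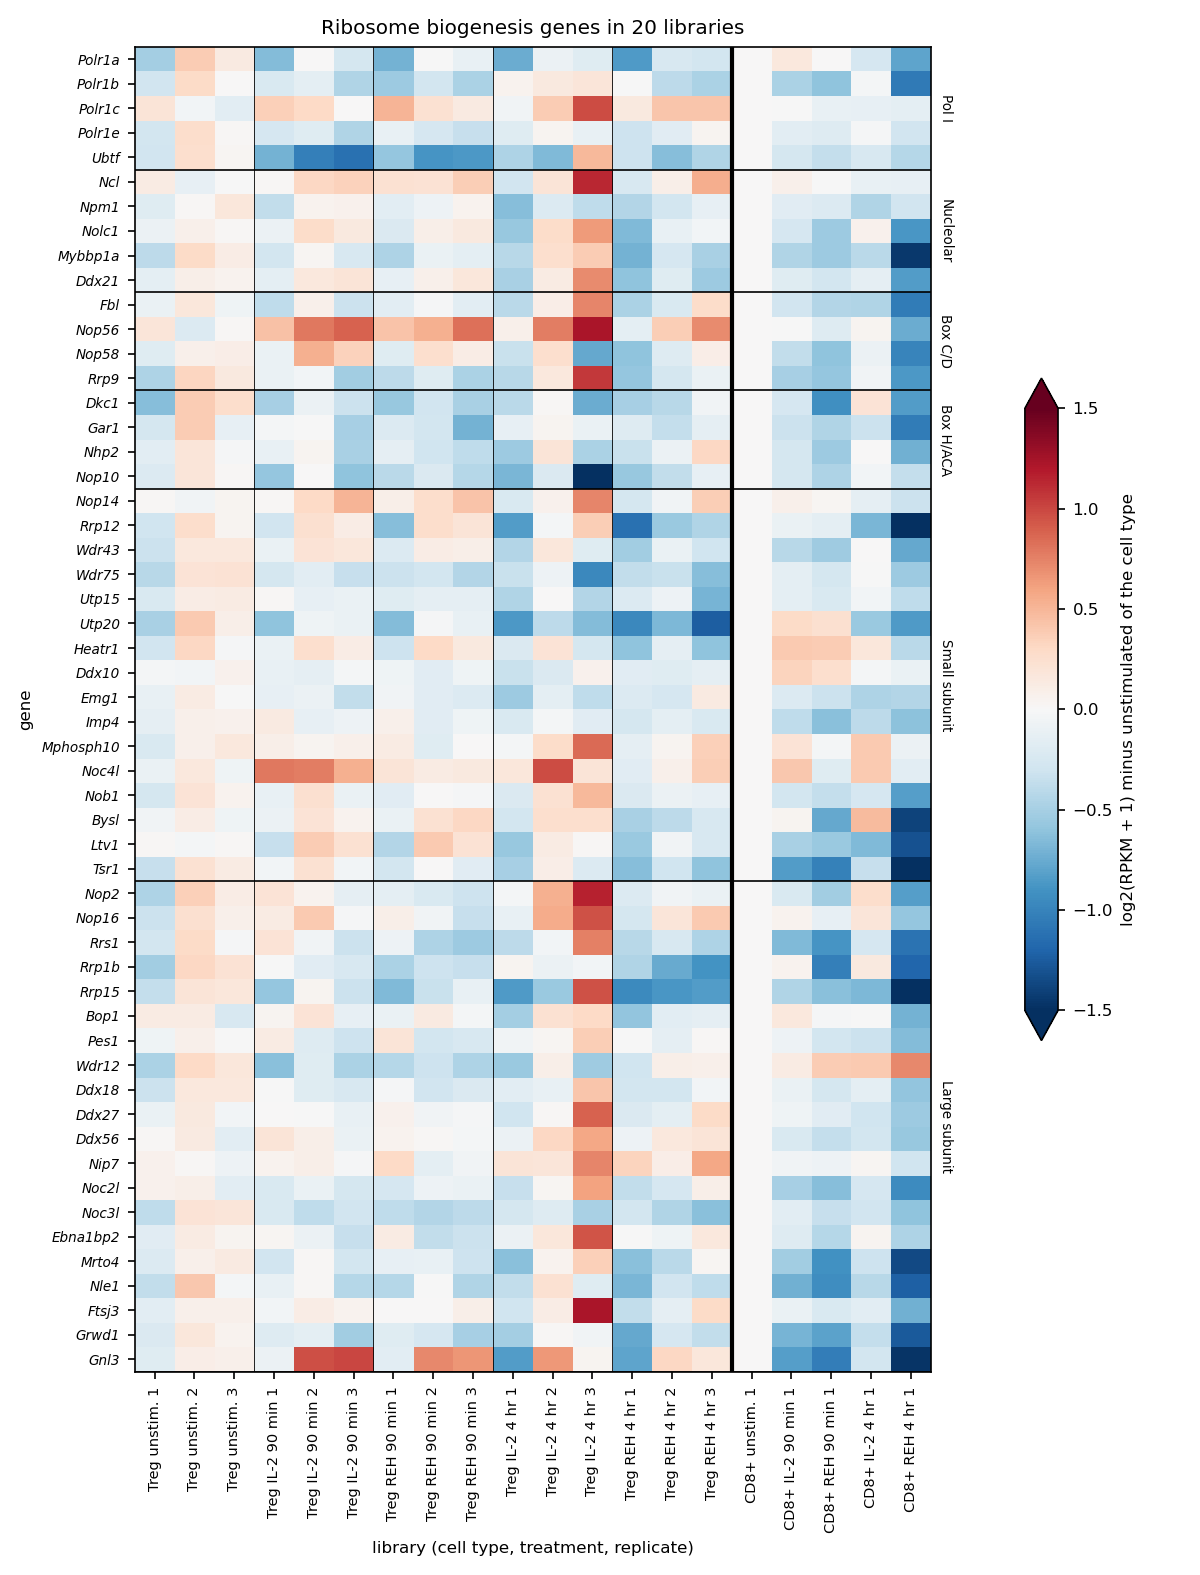
Heatmap of the 54 genes (rows, by role) in the 20 libraries (columns, by cell type, treatment and replicate), where colour is log2(RPKM + 1) minus the mean of unstimulated libraries of the same cell type. The CD8+ library under IL-2-REH at 4 hr is the column in which 53 of 54 genes lie below unstimulated cells.

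In unstimulated cells, the CD8+ library had more RNA of these genes than the Tregs. Its RPKM lay above all 3 Treg libraries for 46 of 54 genes, where 23.2% of 9977 genes expressed in both cell types did so, and below all 3 for 1, where 31.8% of genes did. The median difference on the log2(RPKM + 1) scale, CD8+ minus the Treg mean, was 0.39 for the 54 genes and -0.04 for all genes. Dkc1, the pseudouridine synthase of H/ACA snoRNPs, had 27.1 RPKM in CD8+ T cells and 8.37, 18.03 and 16.5 RPKM in the Treg libraries. Npm1 had 532 RPKM in CD8+ T cells and 267, 307 and 342 RPKM in Tregs. The exception was Noc4l, a partner of Nop14 in the small subunit processome, with 9.77 RPKM in CD8+ T cells and 10.4, 12.7 and 10.7 RPKM in Tregs. Strain of mouse, isolation and cell type cannot be told apart here, and in bulk RNA fewer cells of a type and less RNA per cell cannot be told apart either.

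Reads on the chosen transcripts numbered 20201392 to 63903764 per library. Markers fitted the labels, with 5 Treg markers at a summed 505 to 1061 RPKM in Tregs and 12.6 to 28.3 in CD8+ T cells, and Cd8a and Cd8b1 at 282 to 728 RPKM in CD8+ T cells and 4.46 to 12.7 in Tregs. A pair of Treg libraries stood apart from their group. Unstimulated replicate 1 differed by more than 2-fold from the mean of the other libraries of its group in 14.4% of 10473 genes, and replicate 3 of IL-2 at 4 hr did so in 11.7%, including 7 of the 54 genes, whereas the other 13 libraries did so in 1.05% to 5.07%. For the 54 genes alone, replicate 1 of IL-2 at 4 hr stood apart about as much, with 6 genes past 2-fold. The median log2 difference of the 54 genes was -0.51 in that library and 0.36 in replicate 3. In unstimulated replicate 1, 0 of the 54 genes were past 2-fold. The replicate 3 Treg libraries also held S100a8 and S100a9, markers of neutrophils, at a summed 45.9 to 201 RPKM, against 0.0691 to 3.40 RPKM in every other library, and red cell globins at 137 to 239 against at most 21.6 RPKM. The part of these markers in the results was not tested, and medians and group counts for IL-2 at 4 hr in Tregs are followed by the values without replicate 3.

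In CD8+ T cells at 4 hr, RNA of the ribosome biogenesis genes was lower under IL-2-REH than with IL-2 across every role. The log2 ratio of RPKM + 1, IL-2-REH to IL-2, was below 0 for 51 of 54 genes (38.2% of all 10021 genes), with a median of -0.59 against 0.08 for all genes. It was below -1, a 2-fold difference, for 10 genes, or 18.5% of the 54, where 1.68% of all genes were that much lower. These 10 were Polr1b, Mybbp1a, Dkc1, Rrp12, Bysl, Tsr1, Nop2, Rrp1b, Mrto4 and Gnl3. No gene of the 54 was higher by 2-fold (0 of 54, against 0.549% of all genes). The median ratio was -0.27 for the RNA polymerase I genes, -0.70 for the nucleolar proteins, -0.80 for box C/D snoRNPs, -0.73 for box H/ACA snoRNPs, -0.54 for the small subunit and -0.70 for the large subunit.

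Bysl had the lowest ratio. Its RPKM in CD8+ T cells was 5.77 unstimulated, 5.96 and 2.96 with IL-2 and IL-2-REH at 90 min, and 8.38 and 1.59 at 4 hr. It was thus higher with IL-2 than in unstimulated cells at 4 hr and lower under IL-2-REH, a ratio between the cytokines of 0.190 in RPKM and of 0.277 in RPKM + 1 (log2 -1.85), the scale of all log2 ratios given here, which understates the difference of low genes. The 4 hr values rest on 2188 reads with IL-2 (exact Poisson 95% interval 2097 to 2282) and 445 reads under IL-2-REH (405 to 488), intervals that cover counting error only. Bysl (chromosome 17, 47599331 to 47611492 in GRCm38) overlaps Ccnd3, so some of its reads could be from that gene.

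Rrp1b, a large subunit factor, came next with a log2 ratio of -1.33. It had 8.56 RPKM unstimulated, 8.89 with IL-2 and 3.69 under IL-2-REH at 90 min, and 9.54 with IL-2 and 3.18 under IL-2-REH at 4 hr. Both IL-2-REH libraries were low and the other 3 were close to each other. Tsr1, a factor that keeps immature small subunits from starting translation, had 24.0 RPKM unstimulated, 13.0 and 11.4 at 90 min with IL-2 and IL-2-REH, and 18.7 and 7.42 at 4 hr (log2 ratio at 4 hr -1.23). Gnl3, the nucleolar GTPase nucleostemin, had 28.8 RPKM unstimulated, 15.7 and 13.6 at 90 min, and 23.5 and 9.74 at 4 hr (log2 ratio -1.19). In both Tsr1 and Gnl3 the 90 min libraries were below unstimulated cells with either cytokine, and at 4 hr the IL-2 library was back nearer to the unstimulated one while the IL-2-REH library was not. Nop2, an rRNA cytosine methyltransferase of the large subunit, had 15.3 RPKM unstimulated and 18.6 and 8.15 RPKM at 4 hr (log2 ratio -1.10).

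At the other end were 5 genes with ratios near or above 0, Wdr12 (log2 0.32), Npm1 (0.16), Emg1 (0.02), Ncl (-0.01) and Polr1c (-0.02). Npm1 had 532 RPKM unstimulated, 390 with IL-2 and 435 under IL-2-REH at 4 hr. Ncl had 92.1, 85.0 and 84.5 RPKM in the same libraries. Both were close between the cytokine libraries, while Fbl, the snoRNP methyltransferase fibrillarin and the fourth most abundant of the list in unstimulated CD8+ T cells, had 82.3, 60.1 and 39.3 RPKM. Wdr12 belongs to a complex with Bop1 and Pes1 that processes precursor RNA of the large subunit. Wdr12 had 6.49 RPKM unstimulated, 7.18 and 8.72 with IL-2 and IL-2-REH at 90 min, and 8.84 and 11.3 at 4 hr. Bop1 had 16.5 RPKM unstimulated, 16.5 with IL-2 and 9.75 under IL-2-REH at 4 hr, and Pes1 had 23.0, 18.2 and 14.3 RPKM. Of the 5 CD8+ libraries, that of IL-2-REH at 4 hr held the highest value of Wdr12 and the lowest values of Bop1 and of Pes1. Wdr12 overlaps Carf and Bop1 overlaps Mroh1 and Scx, so part of these reads could belong to those genes.

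**Figure D2:**
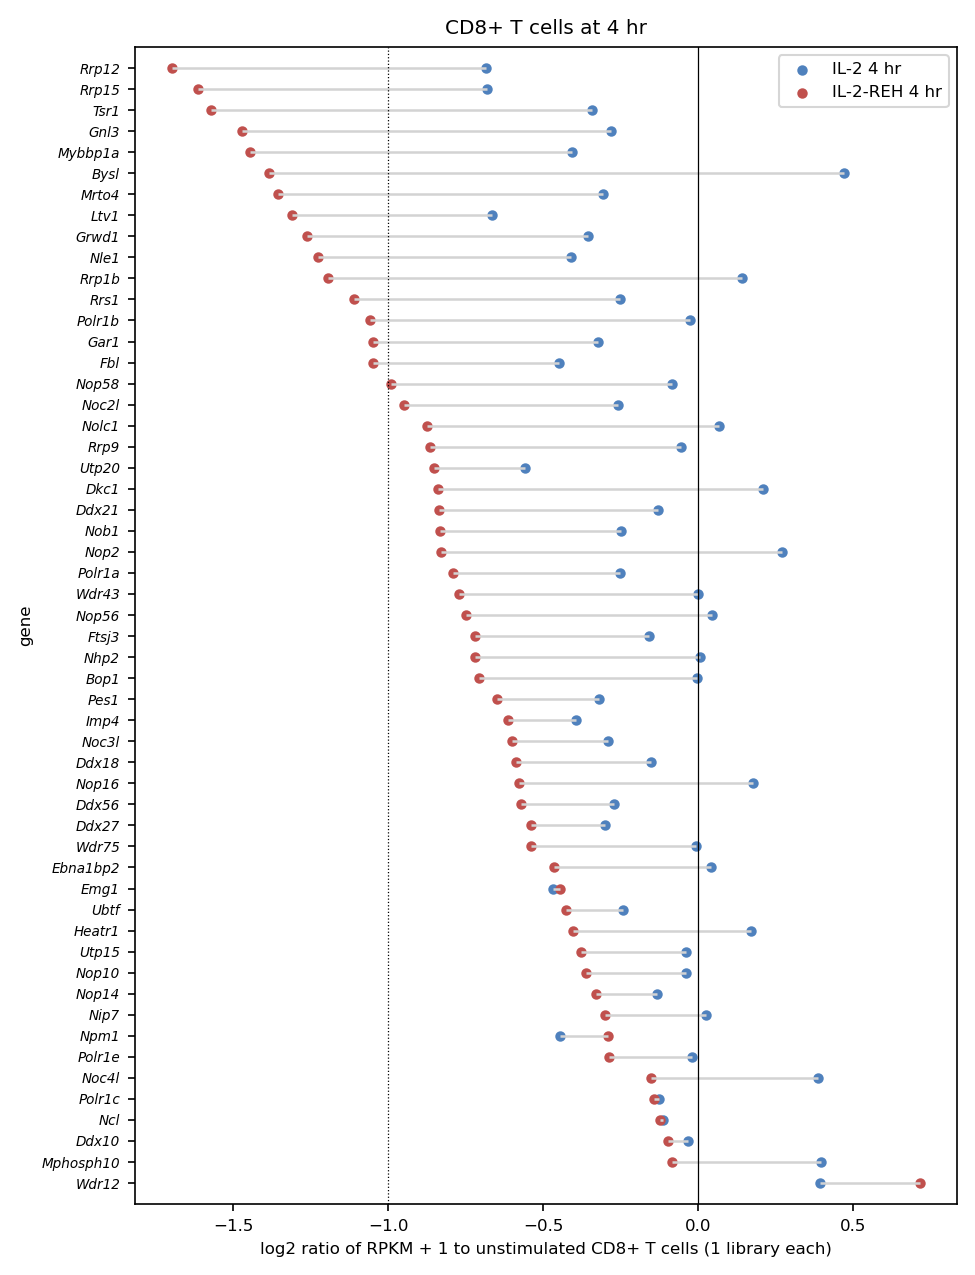
Log2 ratio of RPKM + 1 to unstimulated CD8+ T cells (horizontal axis, 1 library per point) for each of the 54 genes (vertical axis), with IL-2 at 4 hr in blue, IL-2-REH at 4 hr in red and a dotted line at -1. The blue points of 50 genes lie within 0.5 of unstimulated cells and the red points of 15 genes lie beyond the dotted line.

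Against unstimulated CD8+ T cells at 4 hr, IL-2-REH and IL-2 left the genes at different levels, and both ratios share the unstimulated library. With IL-2, 50 of 54 genes were within 0.5 of unstimulated cells on the log2 scale, the median was -0.13 (all genes -0.07) and none was past 2-fold (0 of 54, against 4.71% of all genes in either direction). The share of all genes within 0.5 was not counted, here or for IL-2-REH. With IL-2-REH, 15 of 54 genes were within 0.5, the median was -0.73 (all genes -0.02), 53 of 54 were below 0 (52.2% of all genes) and 15 were lower by more than 2-fold, or 27.8%, where 4.33% of all genes were. These 15 were Polr1b, Mybbp1a, Fbl, Gar1, Rrp12, Bysl, Ltv1, Tsr1, Rrs1, Rrp1b, Rrp15, Mrto4, Nle1, Grwd1 and Gnl3, and 8 of them were also lower by 2-fold against IL-2. Both lists rest on the same IL-2-REH library, so the overlap is not separate evidence. The role medians were -0.43 for RNA polymerase I, -0.83 for nucleolar proteins, -0.93 for box C/D snoRNPs, -0.78 for box H/ACA snoRNPs, -0.58 for the small subunit and -0.71 for the large subunit. The immediate early genes of cell handling summed to 621 RPKM in the unstimulated CD8+ library and to 45.2 to 104 RPKM in the 4 stimulated ones, and their part in differences from unstimulated cells was not tested.

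The 5 lowest ratios of IL-2-REH to unstimulated cells at 4 hr were those of Rrp12 (-1.70), Rrp15 (-1.61), Tsr1 (-1.57), Gnl3 (-1.47) and Mybbp1a (-1.44). Rrp12, which takes part in export of the subunits, had 9.48 RPKM unstimulated, 8.78 and 8.47 at 90 min with IL-2 and IL-2-REH, and 5.52 and 2.23 at 4 hr. Rrp15, a large subunit factor, had 15.7 RPKM unstimulated, 11.2 and 9.82 at 90 min, and 9.40 and 4.44 at 4 hr. Mybbp1a, a nucleolar protein that binds MYB and pre-ribosomal RNA, had 49.5 RPKM unstimulated, 36.1 and 33.6 at 90 min, and 37.1 and 17.6 at 4 hr. In each of the 3 the IL-2-REH library at 4 hr held the lowest value of the 5. The highest ratios were those of Wdr12 (0.72), Mphosph10 (-0.08), Ddx10 (-0.10), Ncl (-0.12) and Polr1c (-0.14). With IL-2 at 4 hr the lowest ratios to unstimulated cells were those of Rrp12 (-0.68), Rrp15 (-0.68), Ltv1 (-0.66), Utp20 (-0.56) and Emg1 (-0.47), and the highest were those of Bysl (0.47), Mphosph10 (0.40), Wdr12 (0.39), Noc4l (0.39) and Nop2 (0.27).

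At 90 min the cytokines differed less in CD8+ T cells. The ratio of IL-2-REH to IL-2 was below 0 for 53 of 54 genes, but 70.5% of all genes were also below 0, and the medians were -0.14 and -0.07. Rrp1b alone was lower by 2-fold (1 of 54, against 0.808% of all genes), at a log2 ratio of -1.08, followed by Bysl (-0.81), Dkc1 (-0.67), Noc4l (-0.59) and Mrto4 (-0.39). Dkc1 had 22.7 RPKM with IL-2 and 13.9 under IL-2-REH at 90 min, and 31.5 and 14.7 at 4 hr. The highest ratios at 90 min were those of Wdr12 (0.25), Heatr1 (-0.02), Npm1 (-0.03), Nip7 (-0.03) and Polr1e (-0.03). Across the separate libraries of both times, 51 of 54 genes were lower under IL-2-REH than with IL-2 at 90 min and again at 4 hr. Of all genes, 70.5% were lower at 90 min and 38.2% at 4 hr, so at most 38.2% could be lower at both. The exact share at both times was not counted.

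Against unstimulated CD8+ T cells at 90 min, 3 of the 54 genes were lower by 2-fold under IL-2-REH, Gnl3 (-1.03), Rrp1b (-1.03) and Tsr1 (-1.01), where 6.11% of all genes were. The next lowest were Nle1 (-0.93) and Dkc1 (-0.92), and the highest ratios were those of Wdr12 (0.38), Heatr1 (0.38), Ddx10 (0.25), Utp20 (0.24) and Nop14 (0.03). With IL-2 at 90 min none was past 2-fold (0 of 54, against 7.24% of all genes in either direction), and the lowest were Tsr1 (-0.83), Gnl3 (-0.83), Nle1 (-0.72), Grwd1 (-0.70) and Rrs1 (-0.66). The highest with IL-2 were Noc4l (0.40), Heatr1 (0.39), Ddx10 (0.33), Utp20 (0.29) and Mphosph10 (0.20). The medians at 90 min were -0.36 under IL-2-REH (all genes -0.12) and -0.19 with IL-2 (all genes -0.04).

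Between 90 min and 4 hr, the CD8+ libraries with IL-2 and under IL-2-REH moved apart. With IL-2 the median log2 ratio of 4 hr to 90 min was 0.05 (all genes -0.06), and 32 genes were higher and 22 lower (57.2% of all genes were lower), none by 2-fold (0 of 54, against 2.0% of all genes in either direction). The highest were Gnl3 (0.55), Nop2 (0.50), Tsr1 (0.49), Dkc1 (0.46) and Polr1b (0.45), and the lowest were Utp20 (-0.84), Rrp12 (-0.58), Polr1a (-0.41), Ddx10 (-0.36) and Npm1 (-0.27). With IL-2-REH the median was -0.33 (all genes 0.06), 49 genes were lower at 4 hr (42.1% of all genes) and 2 of 54 were lower by 2-fold (0.838% of all genes), namely Rrp12 (-1.55) and Utp20 (-1.09). Rrp15 (-0.99), Mybbp1a (-0.90) and Polr1a (-0.80), the largest subunit of RNA polymerase I, came next, and the highest were Wdr12 (0.34), Nop10 (0.10), Dkc1 (0.08), Noc4l (0.03) and Imp4 (0.01). Utp20 had 10.2 and 5.23 RPKM with IL-2 at 90 min and 4 hr and 9.79 and 4.08 RPKM under IL-2-REH, so it was lower at 4 hr with either cytokine.

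In Tregs, none of the 54 genes passed the test in any of the 9 comparisons (edgeR quasi-likelihood test, Benjamini-Hochberg adjusted p under 0.05 over 15009 genes). Over all genes the share called was 0.853% for IL-2 and 0.0933% for IL-2-REH against unstimulated cells at 90 min, 2.27% and 0.313% at 4 hr, 0.0133% and 0.0267% for IL-2-REH against IL-2 at 90 min and 4 hr, and 0.0% for the change from 90 min to 4 hr with IL-2, the same change under IL-2-REH and the difference between those changes. At an unadjusted p under 0.05, the numbers of the 54 genes in the same order were 3, 1, 7, 8, 1, 11, 3, 9 and 1, and the shares of all genes were 13.8%, 11.4%, 17.7%, 13.3%, 0.993%, 3.72%, 17.0%, 14.6% and 0.313%. DESeq2 called 1 gene for IL-2 at 90 min (Noc4l, with 4.54% of all genes called) and 2 for IL-2-REH at 4 hr (Rrp1b and Utp20, 4.29%). It also called 1 for IL-2-REH from 90 min to 4 hr (Utp20, 1.98%). In the other 6 comparisons it called 0. There the shares of all genes called were 6.84% for IL-2 at 4 hr, 0.867% for IL-2-REH at 90 min and 3.19% over time with IL-2. They were 0.0698% and 0.401% between the cytokines at 90 min and 4 hr, and 0% for the difference between the changes. With limma, 0 of the 54 genes were called in all 9, and the share of all genes was at most 2.54% (IL-2 at 4 hr). With the replicate number as a block, which pairs same-numbered libraries, edgeR called 1 of the 54 genes for IL-2 at 90 min (1.83% of all genes) and 2 for IL-2-REH at 4 hr (3.03%) and 0 for IL-2-REH at 90 min (0.213%), IL-2 at 4 hr (6.92%), the cytokines against each other at 90 min (0.0133%) and 4 hr (0.0666%), and the changes over time with IL-2 (0.386%) and under IL-2-REH (0.04%). The 95% intervals of the log2 fold changes had a median half-width of 0.55 in 8 comparisons and of 0.78 for the difference between the changes. These intervals are not adjusted for the number of genes, so with 3 libraries per group a call mostly needed a larger difference. Utp20, at a log2 fold change of -1.32 for IL-2-REH at 4 hr against unstimulated cells, was not called (edgeR adjusted p = 0.119). A gene without a call can thus still differ.

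For IL-2-REH against IL-2 in Tregs at 4 hr, most genes had lower values under IL-2-REH, but the size depended on which libraries were used. Over 6 fits without 1 library or replicate number, the median log2 fold change of the 54 genes ran from -0.57 to -0.11. The edgeR log2 fold change was negative for 48 of 54 genes, with a median of -0.41 against 0.01 for all genes, and without replicate 3 of IL-2 at 4 hr 40 of 54 were negative with a median of -0.11 (all genes 0.01). By same-numbered pairs of libraries, RPKM was lower under IL-2-REH in all 3 pairs for 32 of 54 genes (12.6% of all genes) and higher in all 3 for 0 (26.2%). When each pair was centred on the median of all genes, 37 of 54 were lower in all 3 (26.6%), and in pairs 1 and 2 alone 37 of 54 were lower in both without centring (20.6%). The median log2 ratios of the 54 genes in pairs 1, 2 and 3 were -0.07, -0.28 and -0.40, and those of all genes were 0.08, 0.02 and 0.10. The pairs thus pointed the same way by differing amounts.

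Rrp1b had the lowest p of the 54 genes in this comparison. Its RPKM was 6.73, 6.09 and 6.34 with IL-2 at 4 hr and 4.54, 3.46 and 3.06 under IL-2-REH. The groups did not overlap, which was so for 4 of the 54 genes with lower values under IL-2-REH (Polr1b, Gar1, Nop2 and Rrp1b, against 2.36% of all genes) and for 0 with higher values (5.43%). Without replicate 3 of IL-2 the groups did not overlap for 5 lower genes, the same 4 and Noc3l (5.31%), and for 1 higher gene, Ddx10 (7.75%). The log2 fold change of Rrp1b was -0.87 (SE 0.22, 95% interval -1.34 to -0.39, edgeR adjusted p = 0.476) and -0.81 (SE 0.24) without replicate 3 of IL-2. In unstimulated Tregs Rrp1b had 4.24, 8.39 and 7.74 RPKM, a wider spread than in either treated group. Nop2 had 11.53, 17.5 and 27.3 RPKM with IL-2 and 10.03, 11.3 and 10.9 RPKM under IL-2-REH (log2 fold change -0.90, SE 0.27, edgeR adjusted p = 0.887), and its log2 fold change was -0.43 (SE 0.18) without replicate 3 of IL-2, the highest of its values. Mybbp1a had 22.6, 36.3 and 39.8 RPKM with IL-2 and 18.2, 25.4 and 21.4 under IL-2-REH, groups that overlapped although each same-numbered pair was lower under IL-2-REH. Rrp1b and Nop2 are described because their p-values were the lowest, and were thus chosen after their values were seen. Of the 54 intervals in this comparison 20 reached below a log2 fold change of -1 and 1 reached above 1, so for 33 genes a 2-fold difference between the cytokines lay outside the interval.

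**Figure D3:**
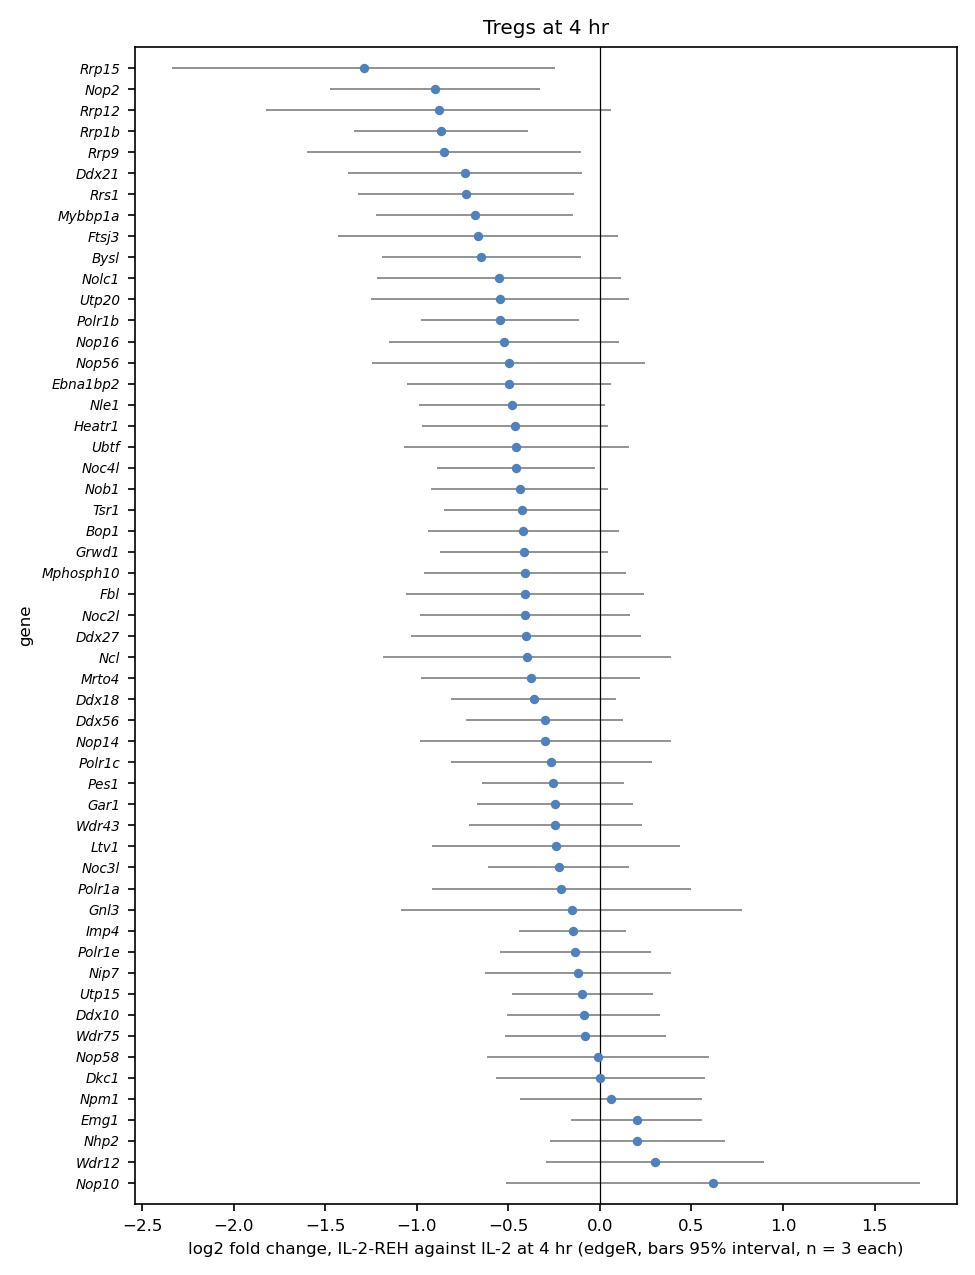
Log2 fold change of IL-2-REH against IL-2 in Tregs at 4 hr (horizontal axis, points from edgeR, bars 95% intervals, n = 3 libraries each) for the 54 genes (vertical axis). 48 points lie below 0 and no gene passed the adjusted threshold.

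**Figure D4:**
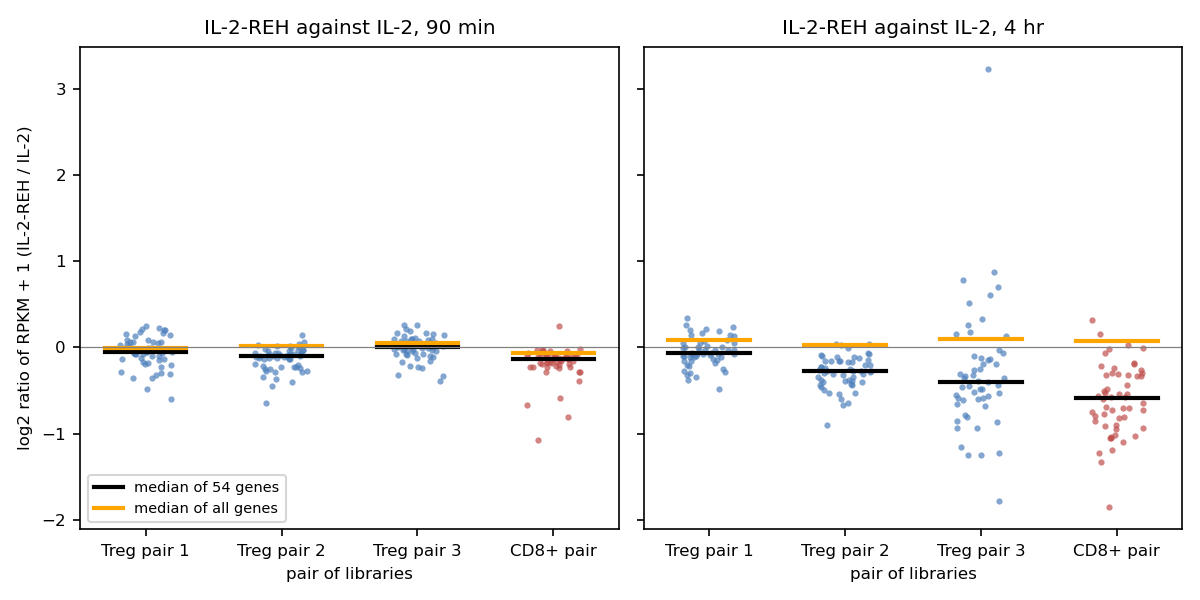
Log2 ratio of RPKM + 1 of IL-2-REH to IL-2 (vertical axis) in the 3 same-numbered Treg pairs and the CD8+ pair (horizontal axis) at 90 min (left) and 4 hr (right), with 1 point per gene, black lines for the median of the 54 genes and orange lines for the median of all genes. At 4 hr the median of the 54 genes is -0.07, -0.28 and -0.40 in the Treg pairs and -0.59 in the CD8+ pair.

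At 90 min, IL-2-REH and IL-2 gave close values in Tregs. The median log2 fold change was -0.04 (all genes 0.02), 17 of 54 genes were lower under IL-2-REH in all 3 pairs (15.8% of all genes), and Ubtf was the 1 gene higher in all 3 (19.2%). The groups did not overlap for 4 genes with lower values under IL-2-REH, Utp15, Noc4l, Nop2 and Rrp1b (3.04% of all genes), and for 0 with higher values (2.42%). For 50 of 54 genes the 95% interval lay within a log2 fold change of 1 on either side. Noc4l had 20.2, 19.8 and 16.8 RPKM with IL-2 and 13.0, 12.3 and 12.5 RPKM under IL-2-REH (log2 fold change -0.58, SE 0.20, edgeR adjusted p = 0.9999), which had the lowest unadjusted p of the 54 at 0.0120.

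Against unstimulated Tregs at 90 min, Noc4l also came closest to a call. It had 10.4, 12.7 and 10.7 RPKM in unstimulated cells, so the 3 IL-2 libraries lay above all unstimulated and all IL-2-REH libraries of that time. On IL-2 its log2 fold change was 0.89 (SE 0.20, edgeR adjusted p = 0.0621). With the replicate block, edgeR called it (log2 fold change 0.88, adjusted p = 0.0346), where 1.83% of all genes were called. Over the 14 alternatives of this comparison its adjusted p ran from 0.00236 to 1, and it was called in 4. With IL-2 at 4 hr Noc4l had 12.8, 23.2 and 13.0 RPKM, of which replicate 2 was the high value (log2 fold change 0.58, SE 0.20, edgeR adjusted p = 0.157). In CD8+ T cells it had 9.77 RPKM unstimulated, 13.2 and 8.48 with IL-2 and IL-2-REH at 90 min, and 13.1 and 8.69 at 4 hr, higher with IL-2 and lower under IL-2-REH than unstimulated cells at both times.

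Ubtf, the factor UBF that binds the ribosomal DNA and recruits RNA polymerase I, had lower values in stimulated Tregs at 90 min. It had 26.5, 38.9 and 33.2 RPKM in unstimulated cells, 19.6, 15.5 and 14.45 with IL-2 at 90 min and 21.5, 17.2 and 17.5 under IL-2-REH. The treated libraries all lay below the unstimulated ones, with log2 fold changes of -0.85 (SE 0.29, edgeR adjusted p = 0.217) with IL-2 and -0.67 (SE 0.29, adjusted p = 0.417) under IL-2-REH, neither of which passed the threshold. At 4 hr the values were 23.3, 20.1 and 45.8 RPKM with IL-2, where replicate 3 was the high library, and 25.9, 20.6 and 23.4 RPKM under IL-2-REH. In CD8+ T cells Ubtf had 35.0 RPKM unstimulated and 25.8 to 29.5 RPKM in the stimulated libraries.

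Nop56 and Gnl3 had higher values in stimulated Tregs at 90 min. Nop56 had 75.4, 57.5 and 67.4 RPKM unstimulated, 90.2, 116 and 124 with IL-2 and 89.5, 96.5 and 118 under IL-2-REH, so that neither treated group overlapped the unstimulated one (log2 fold change with IL-2 0.86, SE 0.35, edgeR adjusted p = 0.299). Gnl3 had 16.9, 20.6 and 20.4 RPKM unstimulated, 18.1, 38.6 and 39.5 with IL-2 and 17.1, 32.3 and 31.2 under IL-2-REH, where replicate 1 stayed near the unstimulated level (log2 fold change with IL-2 0.92, SE 0.44, edgeR adjusted p = 0.368). Nop56 and Gnl3 hold snoRNA genes in their introns and overlap Idh3b and Glt8d1. Without replicate 1 in every group, 4 genes were called for IL-2 at 90 min (Gnl3, Ltv1, Noc4l and Nop56, where 17.3% of all genes were called) and 3 for IL-2-REH (Gnl3, Ltv1 and Nop56, against 15.7%). By same-numbered pairs, 8 of 54 genes were higher in all 3 with IL-2 at 90 min (14.1% of all genes) and 11 were lower (17.4%), and the median log2 fold changes were 0.07 with IL-2 (all genes -0.06) and 0.01 under IL-2-REH (all genes -0.05). Scaled by total reads alone, these medians were -0.10 and -0.17, so their sign depended on the scaling. With IL-2 the groups did not overlap for Nop56 and Noc4l, which were higher (2 of 54, against 7.14% of all genes), and for Ubtf, which was lower (1 of 54, against 5.52%). Under IL-2-REH the same held for Ncl, Nop56 and Nop14 (3 of 54 higher, against 5.72%) and for Ubtf, Nop10 and Ddx10 (3 of 54 lower, against 4.24%).

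At 4 hr against unstimulated Tregs, the comparisons with IL-2 and IL-2-REH share the unstimulated libraries and are given side by side. With IL-2-REH, 43 of 54 log2 fold changes were negative with a median of -0.25 (all genes 0.01), 23 genes were lower in all 3 same-numbered pairs (15.3% of all genes) and 1, Nip7, was higher in all 3 (18.4%). The groups did not overlap for 10 of the lower genes, Ubtf, Ddx21, Rrp12, Utp20, Ddx10, Imp4, Bysl, Ltv1, Rrp15 and Grwd1 (6.05% of all genes), and for Nip7 among the higher ones (1 of 54, against 7.68%). With IL-2, 24 of 54 were negative with a median of 0.11 (all genes -0.00), and without replicate 3 of IL-2 at 4 hr 40 of 54 were negative with a median of -0.13. Over 9 fits without 1 library or replicate number, the median with IL-2 ran from -0.13 to 0.30. Of the pairs with IL-2, 7 genes were higher in all 3 (14.7%) and 10 were lower in all 3 (19.8%), and the groups did not overlap for Noc4l and Nip7, which were higher (2 of 54, against 5.98%), and for Npm1, Nop10 and Emg1, which were lower (3 of 54, against 8.71%). In pairs 1 and 2 alone, 20 genes were lower in both (24.1%) and 7 higher in both (21.0%) with IL-2, and 33 lower (19.6%) and 1 higher (23.4%) under IL-2-REH. Without replicate 3 of IL-2 the groups did not overlap for 6 lower genes (10.6%) and for the same 2 higher ones (10.4%). The 7 immediate early genes of cell handling summed to 1197 to 2007 RPKM in unstimulated Tregs and to 296 to 871 RPKM at 4 hr, and their part in these differences was not tested.

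Utp20 had the lowest p under IL-2-REH at 4 hr. Its RPKM was 2.85, 6.06 and 4.73 in unstimulated Tregs, 1.95, 3.10 and 2.44 with IL-2 at 4 hr and 1.75, 2.36 and 1.29 under IL-2-REH. All 3 IL-2-REH values lay below the lowest unstimulated value (log2 fold change -1.32, SE 0.33, edgeR adjusted p = 0.119). With the replicate block, edgeR called Utp20 (log2 fold change -1.26, adjusted p = 0.0121) and Rrp12 (-0.99, adjusted p = 0.0412), 2 of 54 genes, where 3.03% of all genes were called. Over the 14 alternatives the adjusted p of Utp20 ran from 0.00652 to 0.998 with 4 calls, and that of Rrp12 from 0.0412 to 0.998 with 1 call. Rrp12 had 3.20, 5.22 and 4.34 RPKM unstimulated and 1.39, 2.52 and 2.80 under IL-2-REH at 4 hr, and without the block its log2 fold change was -0.90 (SE 0.44, edgeR adjusted p = 0.402). Rrp1b had 4.54, 3.46 and 3.06 RPKM against the unstimulated 4.24, 8.39 and 7.74, where unstimulated replicate 1 overlapped the treated group (log2 fold change -0.85, SE 0.22, edgeR adjusted p = 0.130). Without unstimulated replicate 1, the library that stood apart, Noc3l, Rrp1b and Utp20 were called as lower under IL-2-REH at 4 hr (3 of 54, against 6.93% of all genes).

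From 90 min to 4 hr in Tregs, 44 of 54 log2 fold changes were negative under IL-2-REH (median -0.23, all genes 0.04) and 24 of 54 with IL-2 (median 0.05, all genes 0.03, and -0.23 without replicate 3 of IL-2 at 4 hr). Over 6 fits without 1 library or replicate number, the median with IL-2 ran from -0.23 to 0.19. Scaled by total reads alone, the median under IL-2-REH was 0.01, so its sign depended on the scaling, and the medians of pairs 1, 2 and 3 were -0.26, -0.12 and 0.08. Of the 16 small subunit factors, 16 had negative values under IL-2-REH (median -0.36) and 14 with IL-2 (median -0.26), or 16 without replicate 3 of IL-2 at 4 hr (median -0.30). By pairs, 21 genes were lower at 4 hr in all 3 under IL-2-REH (17.6% of all genes) and 3 were higher (27.9%). The groups did not overlap for 6 of the lower genes, Ddx21, Utp20, Bysl, Tsr1, Rrp15 and Bop1 (6.91%), and for 1 higher gene, Wdr12 (12.2%). Utp20 (log2 fold change -1.18, SE 0.33, edgeR adjusted p = 0.248) and Bysl (-0.81, SE 0.25, edgeR adjusted p = 0.252) had the lowest p. Bysl had 3.94, 5.23 and 5.56 RPKM at 90 min and 2.79, 3.05 and 3.49 RPKM at 4 hr under IL-2-REH, against 3.98, 5.13 and 4.50 and then 3.37, 5.32 and 5.29 RPKM with IL-2. The test of whether the difference between cytokines changed from 90 min to 4 hr called no gene, and for Bysl it gave a log2 difference of -0.77 (SE 0.36, unadjusted p = 0.0488, edgeR adjusted p = 0.99995). Here the median was -0.33 over the 54 genes and -0.00 over all genes, and without replicate 3 of IL-2 at 4 hr it was -0.04 over the 54 genes, with -0.59 (SE 0.35) for Bysl.

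**Figure D5:**
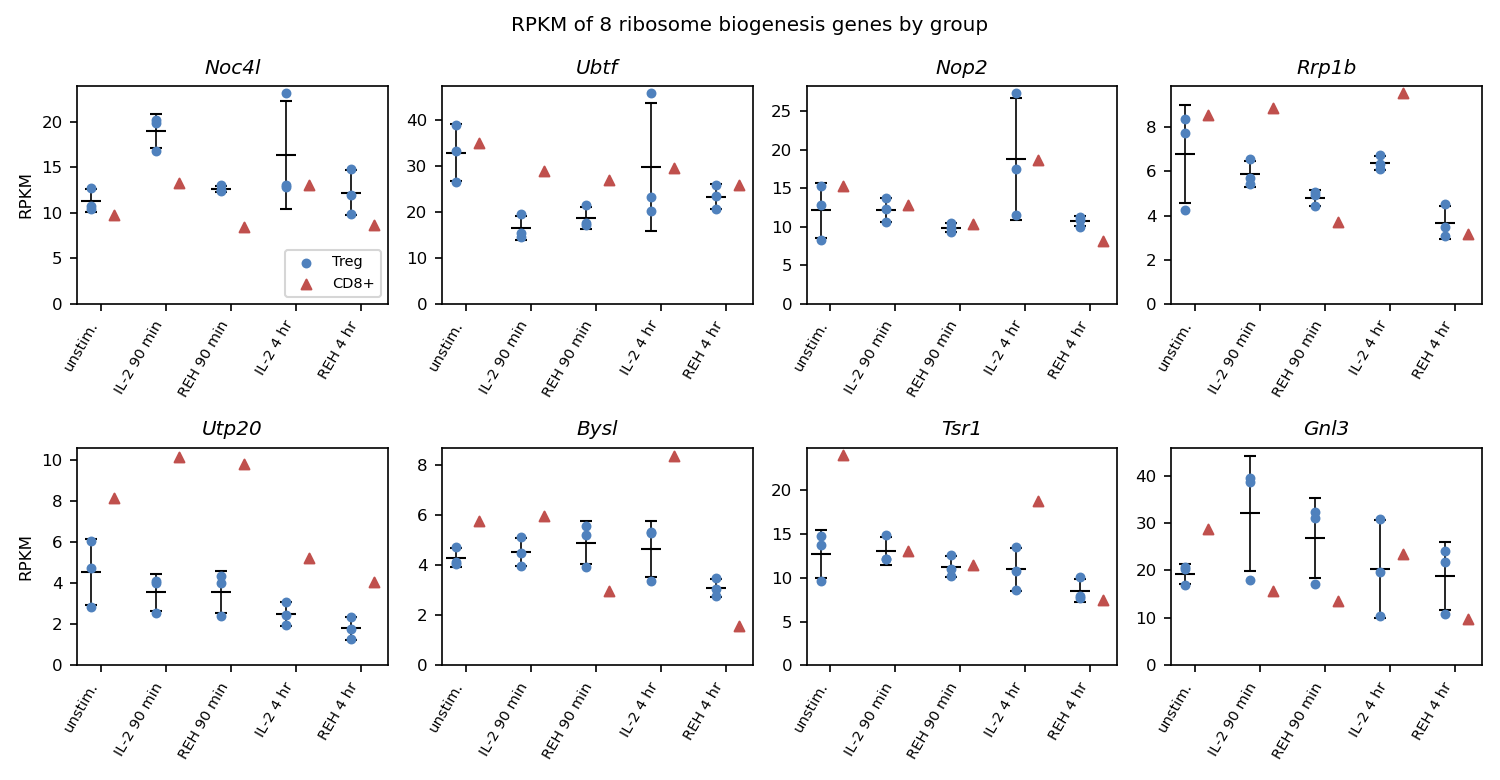
RPKM (vertical axes, from 0) of 8 genes, chosen after their values were seen, in the 5 groups (horizontal axes), with blue points for the 3 Treg libraries of a group with their mean and SD, and red triangles for the single CD8+ library. In CD8+ T cells Bysl runs from 8.38 RPKM with IL-2 to 1.59 under IL-2-REH at 4 hr, while the Treg values of these groups lie between 2.79 and 5.32 RPKM.

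Set side by side, the ratio of IL-2-REH to IL-2 at 4 hr was lower in the CD8+ pair than in all 3 Treg pairs for 31 of 54 genes (26.6% of 9654 genes expressed in both cell types) and higher than all 3 for 0 (28.6%). For Bysl the log2 ratio was -1.85 in CD8+ T cells and -0.20, -0.64 and -0.49 in Treg pairs 1, 2 and 3. For Tsr1 it was -1.23 and -0.15, -0.39 and -0.41, and for Dkc1 it was -1.05 and -0.09, -0.44 and 0.70. For Nop2, -1.10 in CD8+ T cells lay within the Treg pairs (-0.18, -0.60 and -1.25). At 90 min the CD8+ ratio was below all Treg pairs for 22 genes (46.1% of all genes) and above for 2 (12.9%), and for IL-2-REH at 4 hr against unstimulated cells it was below for 41 (25.6%) and above for 2 (20.4%). With 1 CD8+ library per group these differences between cell types were not tested.

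Other genes of the pathway had medians nearer to 0 in CD8+ T cells. Of 85 further biogenesis factors, 0 were lower by 2-fold under IL-2-REH than with IL-2 in CD8+ T cells at 4 hr (1.68% of all genes), with a median log2 ratio of -0.22. Against unstimulated cells 6 of the 85 were lower by 2-fold, where 4.33% of all genes were (median -0.28). The 10 subunits of the RNA exosome, which trims precursor RNAs, had medians of -0.15 and -0.34, with none past 2-fold in either. The 80 cytosolic ribosomal proteins, the products assembled by this machinery, had medians of -0.03 against IL-2 and -0.43 against unstimulated cells, and all 80 were below unstimulated cells under IL-2-REH as with IL-2 (median -0.41). With IL-2 at 4 hr against unstimulated cells, the median was -0.13 for the 54 genes, -0.09 for the further factors and -0.19 for the exosome. There the exosome and the ribosomal proteins lay further from 0 than the 54 genes. In Tregs for IL-2-REH against IL-2 at 4 hr, edgeR medians were -0.16, -0.11 and 0.32 for the 3 lists (further factors, exosome and ribosomal proteins), or -0.00, 0.03 and 0.37 without replicate 3 of IL-2, with 0 calls in each (0.0267% of all genes with all libraries). Against unstimulated cells 1 of 85 further factors was called, as lower with IL-2 at 4 hr (2.27% of all genes), and 0 were called without replicate 3 of IL-2.

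Myc, which is no member of the list, had 39.4 RPKM in unstimulated CD8+ T cells, 32.3 and 8.98 with IL-2 and IL-2-REH at 90 min, and 70.0 and 10.8 at 4 hr. In Tregs Myc had 15.2, 35.9 and 27.1 RPKM unstimulated, 53.8, 148 and 92.4 with IL-2 at 90 min and 28.5, 54.7 and 38.4 under IL-2-REH at 90 min. The log2 fold change with IL-2 at 90 min was 2.13 (SE 0.48, edgeR adjusted p = 0.0606, and 0.000198 with the replicate block), where the median of the 54 genes was 0.07. At 4 hr Myc had 32.96, 92.3 and 82.0 RPKM with IL-2 and 25.1, 60.6 and 38.2 under IL-2-REH (log2 fold change between the cytokines -0.82, SE 0.47, edgeR adjusted p = 0.9996). The part of Myc in the levels of the 54 genes was not tested.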

How the data were processed

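The authors aligned single-end reads of 50 bases to mm10 (GRCm38) using Bowtie2 2.2.6, TopHat2 2.1.1, SAMtools 0.1.8 and bedtools 2.25.0. Raw counts of uniquely aligned reads on each of 31682 RefSeq transcripts were deposited, and so were RPKM values, the authors' scaling of those counts by transcript length and library size. The submitters' notes also name edgeR, with no version.

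For each symbol the transcript with the most reads over the 20 libraries was used. Treg counts were tested with edgeR 4.0.16 in R 4.3.3 (TMM, filterByExpr, glmQLFit and glmQLFTest, 1 mean per group over all 15 Treg libraries), with Benjamini-Hochberg adjustment over 15009 genes. Standard errors come from the fold change and its F value and are approximate. Single CD8+ libraries were compared as log2 ratios of RPKM + 1, untested, over the 10021 genes whose mean RPKM reached 1, and same-numbered Treg pairs on the same scale over 10473 genes. Counting intervals are exact Poisson at 95%. Same-numbered libraries deviated together (mean correlation 0.543, lowest 0.108, over 30 pairs, against a mean of -0.259 over 60 pairs of different number), so the numbers were taken as pairing the libraries.

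Alternatives were a fit with the replicate block, DESeq2 1.42.0, limma 3.58.1 on RPKM, other scalings and filters, the longest transcript, only the groups compared, and fits without 1 library. Dropping the IL-2 libraries of 4 hr, centring pairs, using pairs 1 and 2 alone and plain RPKM ratios were added after seeing the data. The 54 genes and the other lists were chosen with earlier results of these data known. Named genes were those called in Tregs, the 3 highest and 3 lowest by mean RPKM, the highest in each role, and the 5 highest and 5 lowest ratios in each CD8+ comparison, and others were chosen after their values were seen. The fits were tested on simulated data. Tables were made in Python 3.11.15 with numpy 2.4.6 and pandas 2.3.3, and figures in matplotlib 3.10.9.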

Additional observations from a re-analysis of the deposited data

Results flagged for a closer look

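In 28 cases a gene of the list had one direction in the CD8+ pair of libraries and the opposite one in all 3 Treg pairs, on the log2(RPKM + 1) scale. That is 6.48% of the 432 cases of a gene in a comparison, where 8.13% of all cases of the 9654 genes expressed in both cell types did so. None of these differences was tested, since each CD8+ group had 1 library, and several of the CD8+ ratios were close to 0.

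For IL-2 against unstimulated cells at 90 min there were 10 of 54, against 3.98% of all genes. All 3 Treg pairs were above 0 while the CD8+ log2 ratio was -0.0034 for Polr1c, -0.25 for Nolc1, -0.0106 for Nop56, -0.37 for Nop58, -0.42 for Wdr43 and -0.83 for Gnl3. All 3 Treg pairs were below 0 while the CD8+ ratio was 0.16 for Polr1a, 0.29 for Utp20, 0.33 for Ddx10 and 0.13 for Wdr12. For IL-2-REH at 90 min there were 7 of 54, against 5.12% of all genes, with CD8+ ratios of -0.11 for Polr1c, -0.0017 for Ncl, -0.20 for Nop56 and -1.03 for Gnl3 against higher Treg values, and of 0.0073 for Polr1a, 0.24 for Utp20 and 0.25 for Ddx10 against lower ones. Gnl3 was the widest of these, with RPKM of 28.8 in unstimulated CD8+ T cells and 13.6 with IL-2-REH at 90 min.

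At 4 hr against unstimulated cells the ratios were -0.25 for Nob1 and 0.39 for Wdr12 with IL-2 (2 of 54, against 6.26% of all genes), and -0.30 for Nip7 with IL-2-REH (1 of 54, against 8.65%). Between the cytokines there was 1 of 54 at 90 min (15.3% of all genes), Ubtf at -0.0927 in CD8+ T cells with all 3 Treg pairs above 0, and 0 at 4 hr (11.4%). From 90 min to 4 hr with IL-2, the CD8+ ratio was 0.29 for Nop58, 0.23 for Nop10, 0.42 for Wdr43, 0.49 for Tsr1 and 0.55 for Gnl3 (5 of 54, against 6.7%), and each was below 0 in all 3 Treg pairs. With IL-2-REH it was -0.0651 for Ubtf and -0.22 for Nip7 (2 of 54, against 7.58%), with all 3 Treg pairs above 0.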

How the results depend on the processing

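With the replicate block, edgeR called 1 of the 54 genes for IL-2 at 90 min and 2 for IL-2-REH at 4 hr in Tregs, and the block changed no other count of called genes among the 9 comparisons. DESeq2 called 1 for IL-2 at 90 min, 2 for IL-2-REH at 4 hr and 1 for IL-2-REH from 90 min to 4 hr. Fits without 1 library or replicate number called 0 to 4 genes for IL-2 at 90 min, 0 to 3 for IL-2 at 4 hr, 0 to 3 for IL-2-REH at 90 min, 0 to 4 for IL-2-REH at 4 hr, 0 to 1 for IL-2 from 90 min to 4 hr and 0 to 5 for IL-2-REH over the same time, and the counts above 0 came without replicate 1 in every group or without unstimulated replicate 1. Without replicate 1 in every group, the shares of all genes called were 17.3%, 13.4%, 15.7%, 10.7%, 4.32% and 3.96% in the same order of comparisons. Without unstimulated replicate 1, the shares were 12.9% for IL-2 at 90 min and 6.93% for IL-2-REH at 4 hr, where that fit called genes of the list. Why these fits called more genes was not tested. All other counts in Tregs stayed at 0, and no CD8+ gene past 2-fold changed sign. In each Treg comparison the 5 genes of lowest p kept their sign under every alternative run. Other genes named here did not all do so. For IL-2-REH against IL-2 at 4 hr, leaving out replicate 3 of IL-2 moved Ddx10 from -0.09 to 0.12 and Ubtf from -0.46 to 0.09.

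In CD8+ T cells, no gene of the 54 was past a log2 ratio of 2 on the RPKM + 1 scale, so counts of 3, 15, 1, 10 and 2 became 0 in each case (in plain RPKM, Bysl at -2.39 between the cytokines and Rrp12 at -2.09 against unstimulated cells, both at 4 hr, were past it), and the 3 for IL-2-REH at 90 min became 0 when ratios were centred on the median of all genes. With total reads only as scaling, the Treg medians were -0.10 for IL-2 and -0.17 for IL-2-REH at 90 min, and 0.01 for IL-2-REH from 90 min to 4 hr, so the sign of these medians depends on the scaling. Calls over all genes in Tregs went with the block from 128 to 275 for IL-2 at 90 min, from 341 to 1038 for IL-2 at 4 hr, from 14 to 32 and from 47 to 455 for IL-2-REH at 90 min and 4 hr, from 4 to 10 between the cytokines at 4 hr, and from 0 to 58 and 0 to 6 over time with IL-2 and IL-2-REH. Nop10 was lowest, at 46 reads and 1.89 RPKM, in replicate 3 of IL-2 at 4 hr in Tregs, against 17.2 and 24.3 RPKM in replicates 1 and 2. RPKM is already scaled to the mapped reads of a library, and the cause of this low value was not tested.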
